A study of Mus musculus with 10 samples.

Results

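The repertoire described here is the T cell receptor β (TRB) repertoire of αβ T cells from peripheral lymph nodes of Tcrd-/- mice. All 26693 clonotypes listed for the lymph node library were used, out of 29548 clonotypes in the 10 libraries of the series. A clonotype is a TRBV segment, a TRBJ segment and a nucleotide CDR3 (complementarity-determining region 3, the junction at the centre of the antigen-binding site). The mice were of the strain B6.129P2-Tcrdtm1Mom/J, in which the δ chain gene is disrupted and γδ T cells are absent. Cells were sorted as living CD45+CD3+TCRβ+ cells and pooled from several mice, with 5 to 18 animals per pool in the series. No source used here gives the animals' ages. Since the group is 1 library of 1 pool, there is no spread between animals and no test. All values below describe this library, and lymph nodes of mice with an intact Tcrd gene were not analysed here, so the genotype and the tissue cannot be told apart.

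The library held 52498 reads, a mean of 1.97 reads per clonotype. Of the clonotypes, 13896 (52.1%) had 1 read and 60 had 10 or more. The upper limit of a count of 0 was taken as 3 counts. By counting error alone, a segment not listed could thus still hold 0.00571% of reads or 0.0112% of clonotypes. That limit takes counts as independent. It does not cover a segment whose chains were left out of the list for another reason. Every clonotype belonged to the TRB locus, was in frame and held no stop codon. A complete CDR3, which runs from a cysteine to a phenylalanine or tryptophan, was listed for 26217 clonotypes (98.2%). Of the other 476, 84.9% had 1 read. The 95% intervals below are Wilson intervals for shares, exact Poisson intervals for counts of V-J pairs and normal intervals for means. All cover counting error only. No molecular identifiers are named for the PCR reads, so the reads cannot be taken as independent molecules. A clonotype with 1 read can be a sequencing error.

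A β chain gene is assembled in the thymus by joining a D segment to a J segment and then a V segment to the joined DJ. Nucleases trim the segment ends, hairpin opening can leave short mirrored (palindromic) bases beside an untrimmed end, and terminal deoxynucleotidyl transferase adds bases without a template. In the mouse the locus holds 2 repeats in tandem. TRBD1 lies before the TRBJ1 segments, and TRBD2 lies after them and before the TRBJ2 segments, so that joining by deletion lets TRBD1 reach both J clusters while TRBD2 reaches TRBJ2.

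The 2 D segments differ in length and in a diagnostic triplet, shown in capitals in the germline sequences below. Both are on the plus strand of GRCm38, TRBD1 at chr6:41533201-41533212 and TRBD2 at chr6:41542163-41542176, and both sequences come from the GENCODE M21 transcripts.

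TRBD1: gggACAgggggc

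TRBD2: gggACTgggggggc

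Observed junctions are shown by 3 clonotypes, each with its CDR3 from 5′ to 3′. The first is the clonotype with most reads among those with no inserted base at either junction, and the second is the one with most reads at the median of 2 inserted bases. Capitals mark the bases that the deposited positions leave between segments.

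TRBV1, TRBD1 and TRBJ1-1 (14 amino acids, 12 reads): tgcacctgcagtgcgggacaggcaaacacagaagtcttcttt

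TRBV1, TRBD1 and TRBJ2-5 (17 amino acids, 14 reads): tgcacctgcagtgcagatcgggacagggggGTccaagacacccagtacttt

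TRBV31, TRBD2 and, as listed, TRBJ1-2 (14 amino acids, 1 read): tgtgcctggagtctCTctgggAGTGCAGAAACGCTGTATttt

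In the first chain, TRBV1 is followed directly by 8 bases that match TRBD1, of which the deposited positions give 7 to D and 1 to J, and then by the whole coding end of TRBJ1-1. In the second, the TRBV1 end is whole and is followed by tc, the reverse complement of its last 2 bases, which the deposited positions count as part of the V segment. The third held the most inserted bases of a complete CDR3, 2 at V-D and 18 at D-J. Those 18 bases are the start of TRBJ2-3, not of the listed TRBJ1-2, so this junction is long only because of its J assignment. Among 26216 complete clonotypes with reference ends, the listed TRBJ shared at least as many end bases as any other TRBJ in 26070 (99.4%).

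The clonotypes used 25 TRBV segments, and the 5 most used made up 48.3% of them (47.7 to 48.9%). TRBV13-3 had 3244 clonotypes, 12.2% of the total (11.8 to 12.6%). TRBV13-2 followed with 10.1% (9.79 to 10.5%) and TRBV13-1 with 9.94% (9.59 to 10.3%), and the intervals of TRBV13-2 and TRBV13-1 overlapped. TRBV16 had 8.05% and TRBV1 7.99%, again with overlapping intervals. The TRBV13 family, called Vβ8 in the older mouse nomenclature, thus supplied 32.2% of all distinct chains. The 3 least used segments with at least 50 clonotypes were TRBV30 with 64 clonotypes (0.240%), TRBV23 with 228 (0.854%) and TRBV2 with 363 (1.36%). Segments that GENCODE annotates as pseudogenes, TRBV24, TRBV10 and TRBV8, had 40 clonotypes in all (0.150%).

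Neighbouring segments could differ widely in use. TRBV2, at chr6:41047340-41047995, had 1.36% of clonotypes, whereas its neighbour TRBV3, at chr6:41048290-41048828, had 6.32%. TRBV31, the inverted segment that lies beyond the J and C segments at chr6:41557691-41558452, had 5.68%. TRBV1, the outermost segment on the other side, had 7.99%. Shares by reads were close to shares by clonotypes for the segments with at least 50 clonotypes, at 12.3% of reads for TRBV13-3 and 0.208% for TRBV30. TRBV21 had 17 clonotypes (0.0637%) but 0.331% of reads, and TRBV8 had 3 clonotypes (0.0112%) but 0.0552% of reads. Of the 174 TRBV21 reads, 131 belonged to 1 incomplete CDR3.

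**Figure D1:**
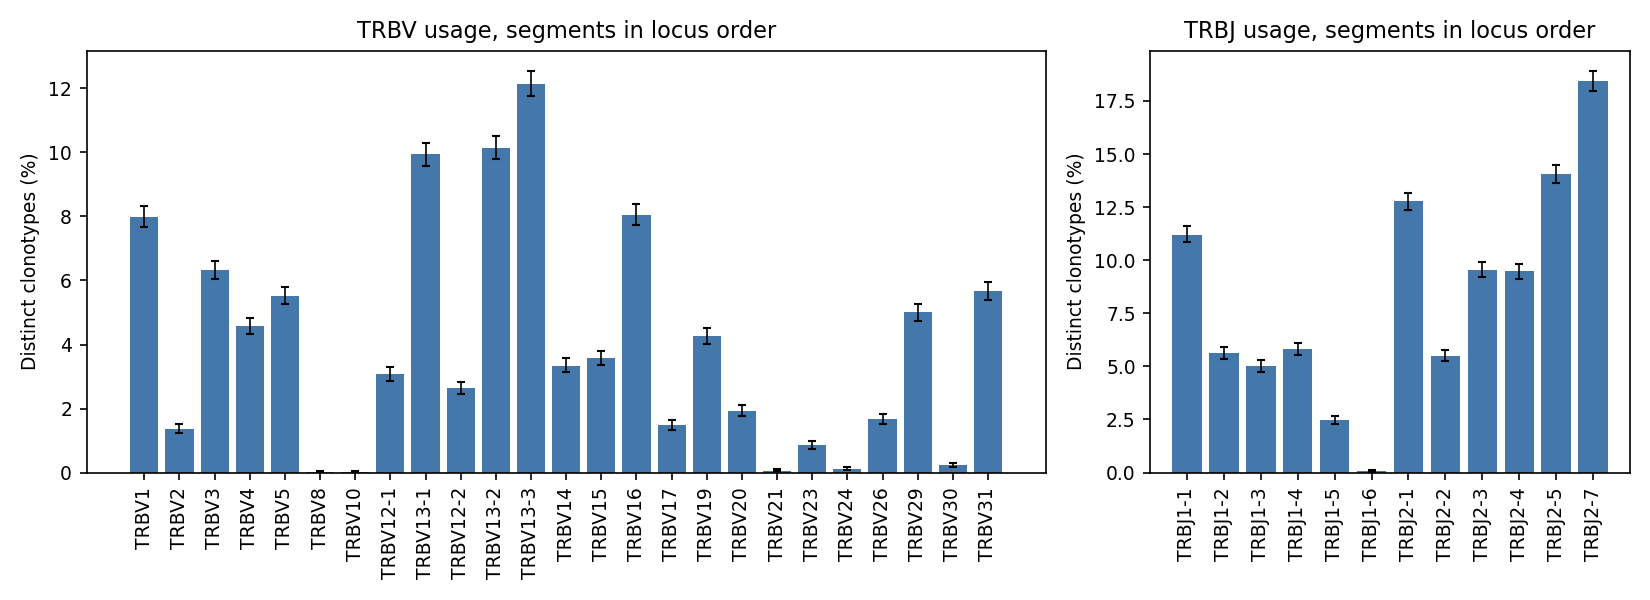
Share of distinct clonotypes (%, bars from 0) for each TRBV segment (left) and TRBJ segment (right) in locus order, with Wilson 95% intervals. The TRBV13 segments stand highest among TRBV, with 12.2% for TRBV13-3, and TRBJ2-7 stands highest among TRBJ with 18.4%.

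TRBJ2 segments were used by 69.8% of clonotypes (69.2 to 70.3%) and TRBJ1 segments by 30.2%. TRBJ2-7 was the most used, with 18.4% (18.0 to 18.9%), followed by TRBJ2-5 with 14.0% and TRBJ2-1 with 12.8%. TRBJ1-1, the TRBJ1 segment nearest to TRBD1, had 11.2% and was the only TRBJ1 segment above 5.83%, the share of TRBJ1-4. TRBJ2-3 had 9.56% and TRBJ2-4 9.48%, with overlapping intervals. TRBJ1-2 had 5.63%, TRBJ2-2 had 5.51% and TRBJ1-3 had 5.01%, and TRBJ1-5 was lower at 2.46%. TRBJ1-6 was listed for 16 clonotypes (0.0599%), and 15 of these ended 1 base past the phenylalanine codon. None of the 16 was complete, so the listed share is not a measure of how often TRBJ1-6 was used. The TRBJ1 and TRBJ2 shares, here and by V segment below, thus hold no complete TRBJ1-6 chain. How far this lowers the TRBJ1 share was not tested.

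A D segment was listed for 18583 clonotypes (69.6%), and 58.8% of these (58.1 to 59.5%) were listed with TRBD1. A short stretch without the diagnostic triplet can match both D segments, so the listed D is not always certain. With D stretches of at least 6 bases the TRBD1 share was 53.8%. The shortest listed D stretch was 5 bases, so a chain whose D was trimmed further appears without one. With TRBJ1, 56.2% of clonotypes were listed with TRBD1, 4.90% with TRBD2 and 38.9% with no D. With TRBJ2, 34.3% were listed with TRBD1, 39.0% with TRBD2 and 26.7% with no D. The share with no D was highest for TRBJ1-3 (46.2%) and lowest for TRBJ2-1 (21.4%).

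The 395 chains listed with TRBD2 and TRBJ1, a join that deletion does not give, mostly lacked the diagnostic triplet. The triplet act stood in the D stretch of 24 of them (6.08%, 4.12 to 8.88%), against 54.2% (53.1 to 55.4%) of TRBD2 stretches with TRBJ2. Among TRBJ1 clonotypes whose D stretch held aca or act, 99.2% (98.8 to 99.4%) had TRBD1. Among such TRBJ2 clonotypes, 47.7% (46.6 to 48.9%) had TRBD1 and 52.3% had TRBD2. Among these TRBJ2 chains the 2 D segments were thus close to even, with TRBD2 slightly ahead. TRBD2 has more bases after its triplet than TRBD1, so the triplet may be lost to trimming less often. The part of this in the split was not tested.

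The D segment carried by TRBJ2 chains differed with the V segment they had joined. Among TRBJ2 chains with a diagnostic triplet, TRBD1 was carried by 74.0% of the 377 TRBV29 chains (69.4 to 78.2%). It was carried by 63.3% of TRBV26 chains (53.4 to 72.1%) and 61.4% of TRBV14 chains (56.0 to 66.6%). At the other end, TRBD1 was carried by 36.1% of the 521 TRBV4 chains (32.1 to 40.3%) and 36.2% of the 345 TRBV31 chains (31.3 to 41.4%). The median over 20 TRBV was 45.2%. When D was named from exact matches to the germline D that covered the triplet, the shares were 74.3% for TRBV29, 65.9% for TRBV26 and 61.7% for TRBV14, and 36.3% for TRBV4 and 36.7% for TRBV31. These segments were picked out after their values were seen.

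The share of TRBJ2 also varied with V, between 63.3% of TRBV29 clonotypes (60.7 to 65.8%) and 81.5% of TRBV17 clonotypes (77.4 to 85.0%). TRBV19 (63.9%), TRBV26 (64.8%) and TRBV1 (64.9%) were near the low end, and TRBV4 (77.5%) and TRBV14 (76.9%) near the high end. Across the 20 TRBV, a higher TRBJ2 share went weakly with a lower TRBD1 share among TRBJ2 chains (Pearson r = -0.34, Spearman rho = -0.36, n = 20 segments of the same library).

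**Figure D2:**
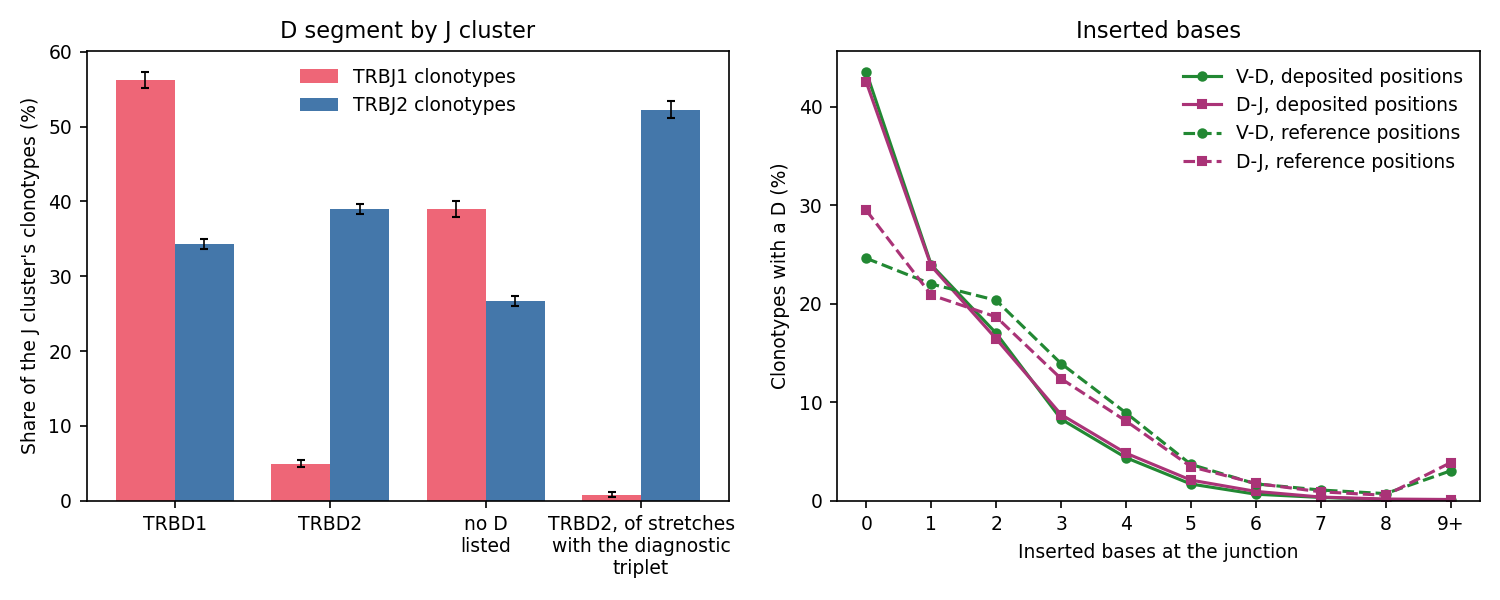
Left, share (%, bars from 0) of TRBJ1 and TRBJ2 clonotypes listed with TRBD1, TRBD2 or no D, and, at the right of the panel, the TRBD2 share of clonotypes whose D stretch held the diagnostic triplet, with Wilson 95% intervals. TRBD2 made up 0.823% of TRBJ1 chains there, against 52.3% of TRBJ2 chains. Right, share of clonotypes with a D (%) by the number of inserted bases at V-D and D-J, by the deposited positions (solid) and by exact matches to germline ends (dashed), where 9+ is 9 or more.

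Pairing of V with J was close to independent. Expected numbers were the product of the segment totals, and 207 TRBV-TRBJ pairs with at least 20 expected clonotypes were described, which held 98.9% of clonotypes. The observed over expected ratio ran between 0.317 and 1.69, and its quartiles were 0.869 and 1.12. Of the 207 pairs, 58 (28.0%) lay past 1.25-fold, 26 above (12.6%) and 32 below (15.5%). To reach independence, 6.54% of clonotypes would have to change pair, a number that includes counting error.

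The most over-represented pair was TRBV12-1 with TRBJ1-2, with 78 clonotypes observed and 46.2 expected, a ratio of 1.69 (1.33 to 2.11). TRBV26 with TRBJ1-3 had a ratio of 1.62 (1.14 to 2.25), TRBV17 with TRBJ2-2 had 1.61 (1.12 to 2.24), TRBV19 with TRBJ1-3 had 1.55 (1.24 to 1.90) and TRBV29 with TRBJ1-4 had 1.48 (1.22 to 1.77). All 5 lower intervals lay above 1, but the pairs were picked as the most extreme of 207.

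The strongest departures were deficits, and all 5 named deficits used TRBJ1 segments. TRBV15 with TRBJ1-2 had 17 clonotypes against 53.7 expected, a ratio of 0.317 (0.184 to 0.507). TRBV14 with TRBJ1-5 had 7 against 22.0 expected, a ratio of 0.319 (0.128 to 0.657). On the log2 scale this deficit was -1.65, and it was -0.83 among clonotypes with at least 2 reads and -1.07 weighted by reads. TRBV17 with TRBJ1-2 had a ratio of 0.404 (0.185 to 0.768), TRBV14 with TRBJ1-3 had 0.425 (0.256 to 0.664) and TRBV5 with TRBJ1-2 had 0.458 (0.324 to 0.628). TRBJ1-2 took part in 3 of these deficits and in the highest ratio. The share of its clonotypes that would have to change V was 13.8% for TRBJ1-2, more than for any other TRBJ described, and 3.54% for TRBJ2-7, the lowest. Among TRBV the share that would have to change J was highest for TRBV17 (13.3%) and lowest for TRBV13-1 (2.82%). TRBV17 had 395 clonotypes and TRBV13-1 had 2653, and counting error adds more to this share where clonotypes are few.

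**Figure D3:**
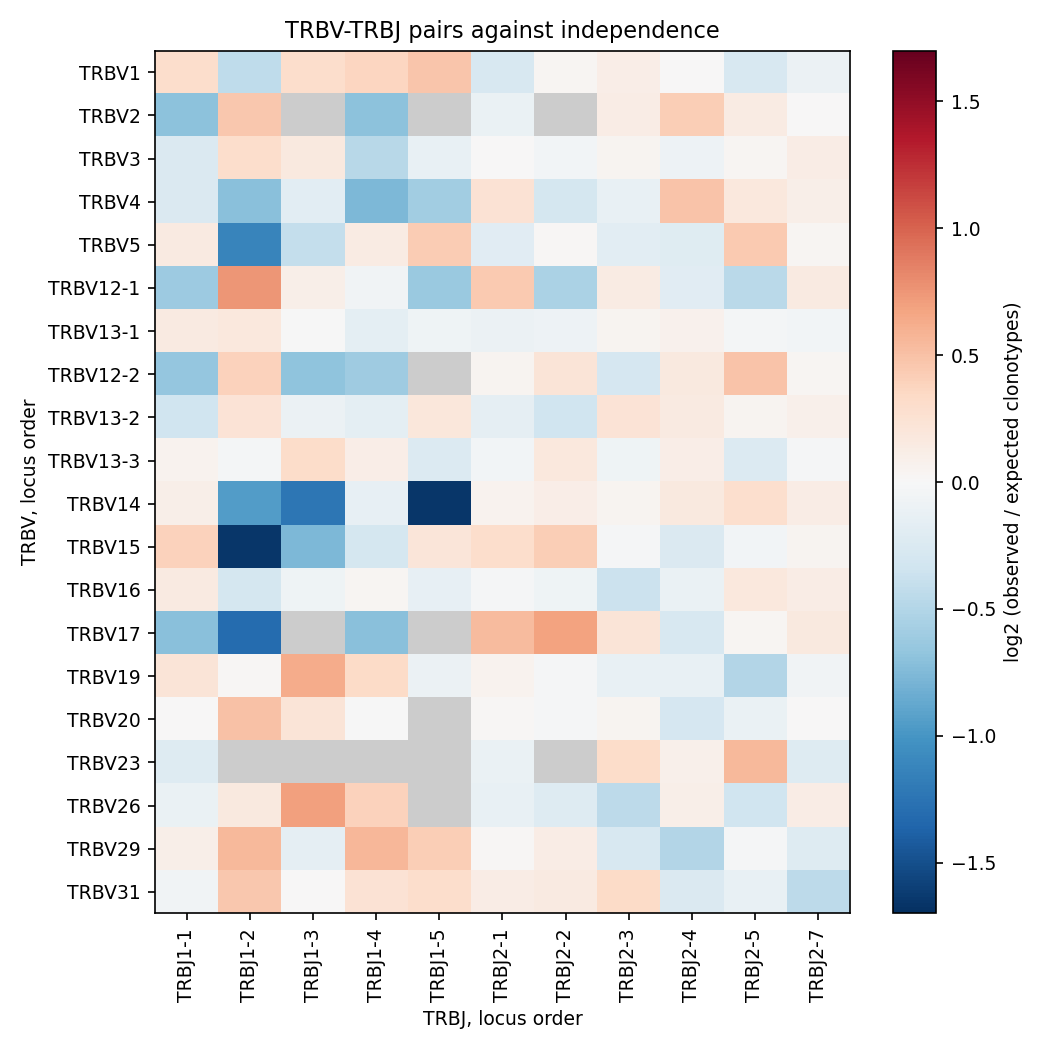
Observed over expected clonotypes on a log2 scale for each TRBV (rows) and TRBJ (columns) in locus order, with pairs under 20 expected clonotypes in grey. Deep blue cells in the TRBJ1-2 column mark the deficits of TRBV15 (ratio 0.317), TRBV17 (0.404) and TRBV5 (0.458), while the TRBJ2-7 column stays pale.

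Mean CDR3 length was 13.8 ± 1.45 amino acids (SD over 26693 clonotypes). The most common length was 14, with 29.9% of clonotypes, and 92.02% lay between 12 and 16. Complete chains ran between 4 and 20 amino acids.

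The J segment moved length more than the V segment. Of the variance in length, 11.4% lay between TRBJ segments and 2.94% between TRBV segments. Mean length was highest with TRBJ2-2 (14.5 ± 1.25 amino acids, SD over clonotypes) and TRBJ2-3 (14.4 ± 1.51). It was lowest with TRBJ2-7 (13.1 ± 1.41) and TRBJ1-1 (13.2 ± 1.35). TRBJ1-4 and TRBJ1-3 both averaged 14.2, TRBJ2-1 averaged 14.1, TRBJ2-4 averaged 13.9, TRBJ2-5 averaged 13.8, TRBJ1-5 averaged 13.7 and TRBJ1-2 averaged 13.5. Across 11 TRBJ, mean length went with the number of CDR3 bases in the germline segment, which is 19 in TRBJ2-7 and 23 in TRBJ2-2 (Pearson r = 0.82, Spearman rho = 0.79). The germline ends of the longest and shortest of these show the difference, written up to the phenylalanine codon.

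TRBJ2-2: caaacaccgggcagctctacttt

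TRBJ2-7: ctcctatgaacagtacttc

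Among TRBV with at least 200 clonotypes, mean length was highest for TRBV2 (14.4 ± 1.31), TRBV5 (14.3 ± 1.34) and TRBV1 (14.1 ± 1.40). It was lowest for TRBV20 (12.9 ± 1.38), TRBV29 (13.5 ± 1.40) and TRBV4 (13.5 ± 1.40). TRBV20 has 14 germline bases in the CDR3, the fewest of these 20 segments. TRBV3 has 21 in the GENCODE sequence, the most, yet its mean was 13.9, and its chains lacked 7.56 of those bases on average. Only 0.0600% of its chains kept all 21, and whether the last annotated bases belong to the coding end was not tested. Across the 20 TRBV, with TRBV3 taken at 21, the relation to germline bases was weak (Pearson r = 0.36, Spearman rho = 0.29).

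**Figure D4:**
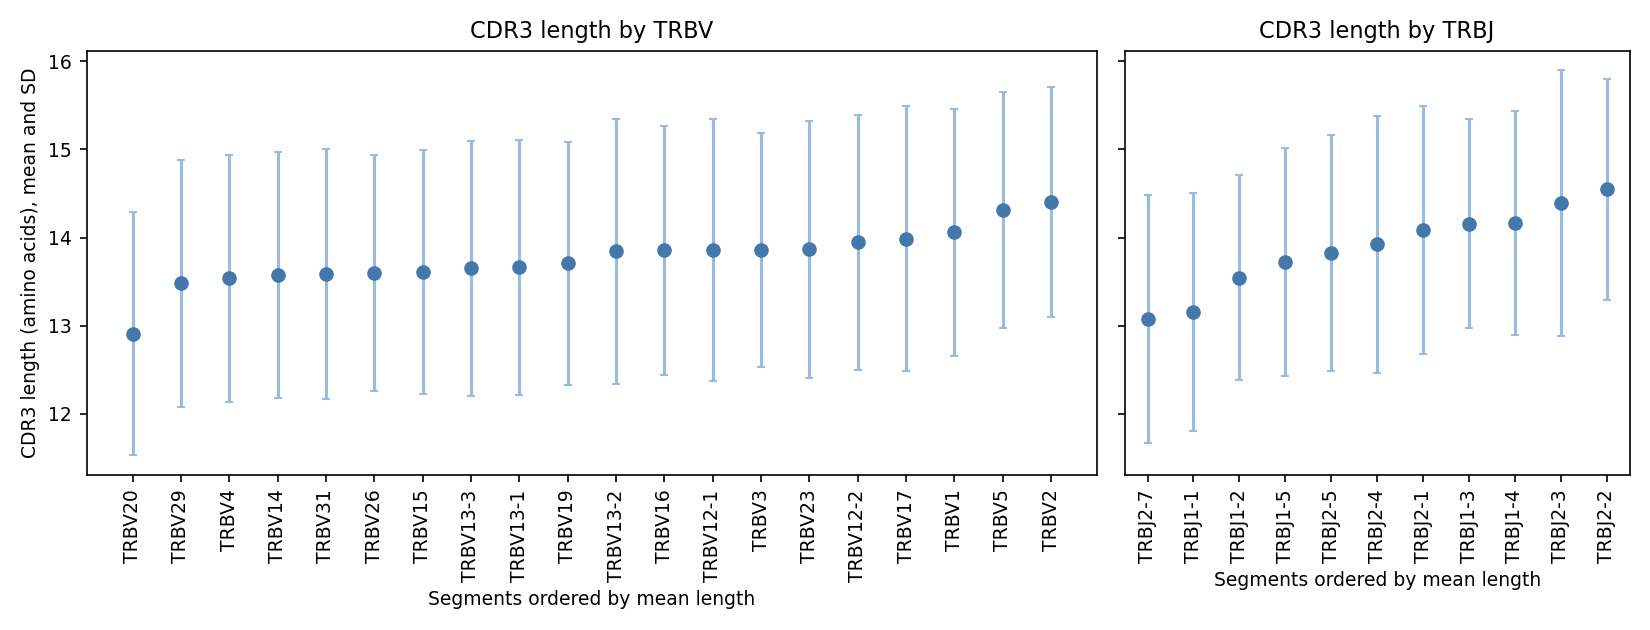
Mean CDR3 length in amino acids with SD over clonotypes (bars) by TRBV (left) and TRBJ (right), for segments with at least 200 clonotypes, ordered by mean. TRBJ means span 13.1 to 14.5 amino acids and TRBV means 12.9 to 14.4, and the SD within every segment is larger than 1 amino acid.

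Trimming differed widely between segments. Of complete clonotypes, 18.5% kept the whole germline V end and 24.98% the whole J end, and on average 3.32 V bases and 3.25 J bases were missing. TRBV2 kept its whole end in 46.6% of chains, TRBV5 in 41.4% and TRBV12-1 in 37.3%. TRBV31 did so in 0.947% and TRBV3 in 0.0600%. Ends here are those of the GENCODE sequences, and whether the last annotated bases of TRBV31 and TRBV3 are coding was not tested. The V values over all segments include both. Among TRBJ, the whole end was kept most often by TRBJ1-3 (51.6%) and TRBJ2-3 (43.1%) and least often by TRBJ2-1 (12.8%). These trimmed segments were picked out after their values were seen.

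TRBV4 never kept its whole end, and its germline sequence holds an in-frame stop codon there, in capitals below. At least part of that codon must be removed for a chain to be read through. Its 1201 complete clonotypes kept at most 14 of the 17 bases, and the codon spans bases 13 to 15 counted from 1 at the cysteine codon.

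TRBV4: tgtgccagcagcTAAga

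By the deposited positions, clonotypes with a D held 1.17 ± 1.42 inserted bases at V-D and 1.24 ± 1.56 at D-J (SD over 18583 clonotypes). The 2 junctions were close in size, and 43.5% of V-D and 42.5% of D-J junctions held none. Both junctions were free of inserted bases in 18.6% of these clonotypes (18.0 to 19.1%), against 18.5% from the product of the 2 shares. The numbers of bases at V-D and D-J were not correlated across clonotypes (Pearson r = -0.01, Spearman rho = -0.01). A long insertion at 1 junction thus did not go with a long or short one at the other.

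These numbers depend on where a segment is taken to end. Counting only bases that match the germline exactly, V-D held 2.19 ± 2.49 bases, D-J held 2.22 ± 3.08, and 7.09% (6.74 to 7.46%) of 19550 clonotypes with a D had none at either. The deposited V end ran past the exact match in 25.3% of complete clonotypes and the deposited J start lay before it in 24.2%. The listed D stretch held mirrored bases at an end in 27.6% of TRBD1 and 22.0% of TRBD2 clonotypes. An exact V or J match also stops at the first base that differs from the germline, so germline bases beyond it can count as inserted. By exact matches, 3.03% of V-D and 3.86% of D-J junctions held 9 or more bases, against 0.102% and 0.118% by the deposited positions. The share of clonotypes with no inserted base was higher by the deposited positions. The part of each of these in that difference was not tested.

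By V segment, V-D insertion was highest for TRBV14 (1.48 ± 1.68 bases, SD over clonotypes), TRBV4 (1.37 ± 1.41) and TRBV3 (1.32 ± 1.40). It was lowest for TRBV5 (0.975 ± 1.28), TRBV13-2 (0.987 ± 1.25) and TRBV31 (1.01 ± 1.36). By exact matches TRBV14 was again highest (2.55), but the order of the others changed. TRBV4 (2.34), TRBV3 (2.25) and TRBV31 (2.20) then lay inside the range, and TRBV26 (1.88), TRBV13-3 (1.93) and TRBV13-2 (1.963) were lowest. By the deposited positions D-J insertion spanned less, with TRBV14 (1.31 ± 1.698), TRBV19 (1.31 ± 1.54) and TRBV4 (1.29 ± 1.49) highest and TRBV23 (0.968 ± 1.20), TRBV17 (1.06 ± 1.36) and TRBV12-1 (1.14 ± 1.40) lowest. By exact matches D-J insertion spanned as much as V-D insertion, between 1.78 for TRBV23 and 2.45 for TRBV2. By J segment, D-J insertion was highest with TRBJ2-7 (1.35 ± 1.51) and TRBJ1-4 (1.33 ± 1.49) and lowest with TRBJ1-3 (1.08 ± 1.33). By exact matches this order changed as well, with TRBJ2-3 (2.63) and TRBJ2-4 (2.40) highest, TRBJ1-5 (1.98) lowest and TRBJ2-7 and TRBJ1-4 both at 2.16.

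The bases inserted at the junctions were rich in C before D and rich in G after it. At V-D, C made up 39.3% of 21723 inserted bases (38.6 to 39.9%) and G 21.3%. At D-J, G made up 35.1% of 22985 (34.5 to 35.7%) and C 15.3%. In junctions of at least 4 bases the contrast was larger, with 43.6% C at V-D and 46.5% G at D-J. Neighbouring inserted bases were the same base in 39.6% of pairs at V-D, against 27.7% from base composition alone, and in 39.8% at D-J, against 27.1%. By exact matches V-D was again richest in C (45.6%) and D-J in G (31.3%). The germline D segments are mostly G, so D bases counted as inserted would add to the G share. Both begin with G, so mirrored bases before an untrimmed D would be C, and exact matches count these as inserted. The part of either in these shares was not tested.

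Mirrored bases stood next to untrimmed ends far more often than next to trimmed ones. The 15 TRBV with at least 50 untrimmed complete chains were compared. Of their chains with a whole V end and at least 2 bases after it, 52.8% (51.4 to 54.2%) had the mirrored base next, against 19.7% (19.1 to 20.4%) of those whose end was trimmed by 1 to 6 bases. For 2 mirrored bases the shares were 20.8% and 3.90%. At the 11 TRBJ the mirrored base stood next to 60.8% of untrimmed and 24.7% of trimmed ends, and 2 mirrored bases next to 29.4% and 5.79%. A trimmed end cannot be followed by the germline's own next base, since it would then count as untrimmed by that base, so the trimmed ends have fewer bases to choose from. Where a V ends in C or a J begins with C, as in TRBV12-1 and TRBJ1-1, the mirrored base is G. The germline D, mostly G, can also supply that base, and its part in these shares was not tested. TRBV14 went the other way, with 14.6% of its 48 untrimmed and 39.1% of its 780 trimmed ends followed by the mirrored base.

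On average 7.43 ± 2.29 bases of D were listed for TRBD1 chains, whose germline D has 12, and 9.003 ± 2.69 for TRBD2 chains, whose germline D has 14. Listed stretches ran from 5 to 18 bases for TRBD1 and from 5 to 22 for TRBD2. They can hold mirrored bases, and chains with no D listed are left out. The means are thus not the number of germline D bases kept. The whole germline D was held by 150 TRBD1 and 117 TRBD2 clonotypes. Each D can be read in 3 frames, and all were used. TRBD1 read as Gly-Thr-Gly-Gly in 37.8% of chains whose exact D match covered the triplet (36.7 to 38.9%), as Gly-Gln-Gly in 31.9% and as Asp-Arg-Gly in 30.3%. TRBD2 read as Gly-Thr-Gly-Gly in 37.2% (35.8 to 38.7%), as Gly-Leu-Gly-Gly in 32.9% and as Asp-Trp-Gly-Gly in 29.9%. The same frame was thus the most frequent for both D segments.

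Residues at the start and end of the CDR3 followed the germline V and J. In the 7831 complete chains of 14 amino acids, with positions counted from 1 at the cysteine, position 2 was alanine in 89.6%, position 3 serine in 83.9% and position 4 serine in 80.5%. Threonine at position 2 (7.85%) and cysteine at position 3 (7.67%) are the residues that TRBV1 encodes there. Tryptophan at position 3 (5.96%) is the residue TRBV31 encodes, and glycine at position 4 (10.7%) the one TRBV13-2 encodes. Towards the end, position 11 was threonine in 39.7% or glutamate in 38.9%, position 12 glutamine in 44.4% or leucine in 35.6%, and position 13 tyrosine in 61.7% or phenylalanine in 28.6%.

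The middle of the loop was more varied than its ends and the richest in glycine. Position 5 was led by leucine (20.02%), aspartate (16.9%) and proline (11.1%). Position 6 was glycine in 27.9% of chains, aspartate in 12.3% and arginine in 12.03%. Glycine made up 38.3% at position 7, ahead of threonine (10.97%) and arginine (8.10%). At position 8 it made up 34.7%, ahead of serine (18.4%) and asparagine (10.98%). Asparagine (18.8%), glycine (18.6%) and glutamine (16.7%) shared position 9, and aspartate (16.3%), asparagine (15.9%) and glutamate (14.3%) led position 10. The effective number of residues, the exponential of the Shannon entropy, was 12.05 at position 5, the highest of all. It was 8.57 at position 8, the lowest of positions 5 to 10.

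**Figure D5:**
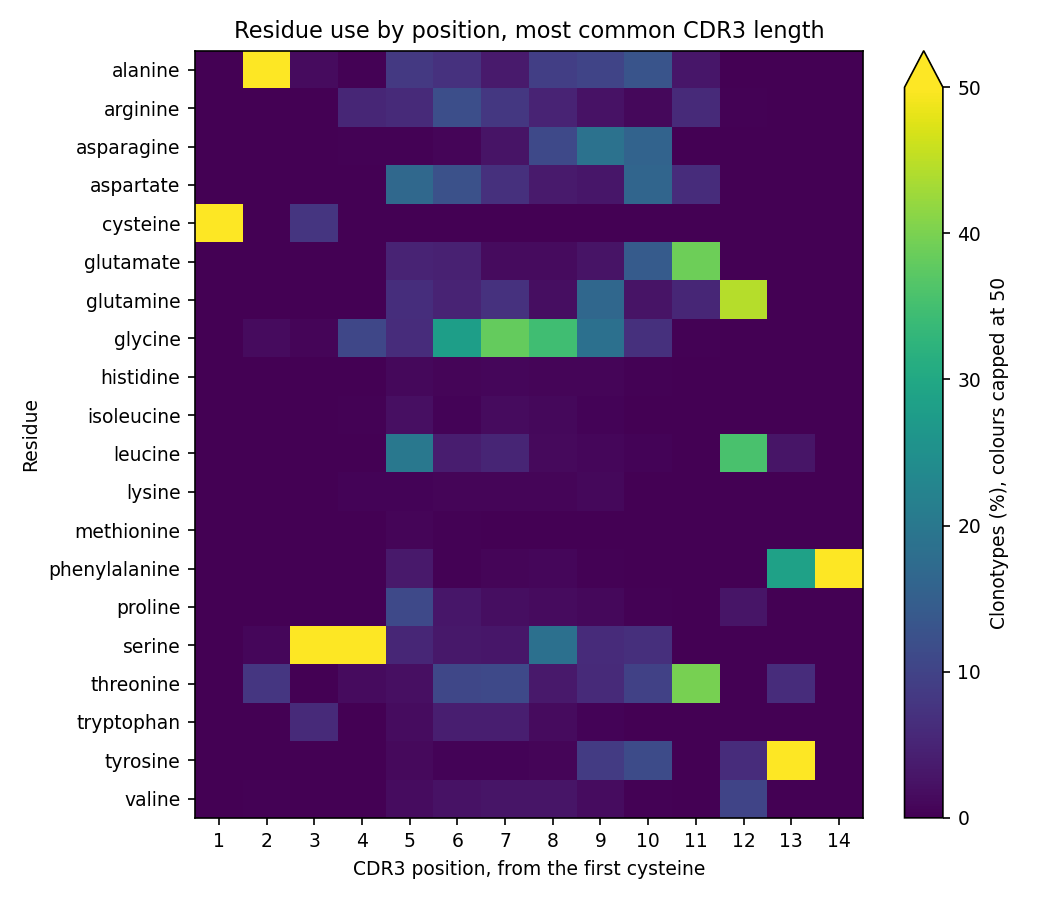
Share of complete 14-residue chains (%, colour, capped at 50) with each residue (rows) at each CDR3 position (columns, from the first cysteine). Glycine forms a band over positions 6 to 9 with its peak of 38.3% at position 7, between V-encoded serine and alanine on the left and J-encoded residues on the right.

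Over all complete chains, glycine made up 22.1% of the interior residues (position 5 to the fifth from the end) and stood in 77.1% of chains. Aspartate (9.97%) and alanine (8.91%) came next. Interior cysteine made up 0.0284% of residues, in 0.164% of chains. Chains listed with TRBD2 had 29.1% interior glycine (28.7 to 29.5%), those with TRBD1 22.9% (22.6 to 23.2%) and those with no D 12.3% (11.9 to 12.6%). Tryptophan made up 4.54% of interior residues with TRBD2, against 0.763% with TRBD1 and 0.806% with no D. Arginine made up 7.73% with TRBD1, against 3.97% with TRBD2 and 4.15% with no D. Residues of a chain are not independent, so these intervals are too narrow.

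Convergent chains are amino acid clonotypes (same TRBV, TRBJ and CDR3 amino acids) that were listed with 2 or more nucleotide sequences. Of 25547 amino acid clonotypes, 1038 were convergent, 4.06% (3.83 to 4.31%). Of these, 954 had 2 versions, 67 had 3, 11 had 4, 5 had 5 and 1 had 6. The nearest pair of versions differed by 1 base in 72.7% of convergent clonotypes. Among clonotypes with at least 2 reads, 2.07% of amino acid clonotypes were convergent, less than the main share by more than 1.5 times.

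The 6 versions of the most convergent chain, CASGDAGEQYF with TRBV13-2 and TRBJ2-7, are shown with the bases that vary in capitals. All 4 codons of alanine and 3 of the 4 codons of glycine were used at the junction, while the TRBV13-2 start and the TRBJ2-7 end were the same in all.

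version 1 (4 reads): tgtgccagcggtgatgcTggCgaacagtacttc

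version 2 (3 reads): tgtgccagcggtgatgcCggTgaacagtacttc

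version 3 (2 reads): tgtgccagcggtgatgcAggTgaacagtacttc

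version 4 (2 reads): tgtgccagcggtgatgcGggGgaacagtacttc

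version 5 (2 reads): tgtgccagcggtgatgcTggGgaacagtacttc

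version 6 (1 read): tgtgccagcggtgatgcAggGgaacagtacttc

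The next most convergent chains had 5 versions each. They were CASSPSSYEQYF (TRBV3, TRBJ2-7), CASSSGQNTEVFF (TRBV29, TRBJ1-1) and 3 chains of 15 amino acids, which used TRBV13-1 with TRBJ2-7, TRBV13-1 with TRBJ2-3 and TRBV13-2 with TRBJ2-3. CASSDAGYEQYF (TRBV13-1, TRBJ2-7) and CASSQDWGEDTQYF (TRBV5, TRBJ2-5) followed with 4 versions each, the pair with most reads among the 11 chains with 4. In the 15-residue chain of TRBV13-1 and TRBJ2-7 the versions differed in the diagnostic D triplet, so that TRBD1 and TRBD2 bases gave the same residues, as 3 of its versions show.

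version 1 (4 reads): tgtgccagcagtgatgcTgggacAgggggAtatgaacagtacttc

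version 2 (3 reads): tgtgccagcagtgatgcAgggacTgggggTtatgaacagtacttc

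version 3 (2 reads): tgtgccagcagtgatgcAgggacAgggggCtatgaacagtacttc

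Some versions varied inside the segments instead, as in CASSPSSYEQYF, where the version with fewest reads differed from the first in the last base of a TRBV3 codon.

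version 1 (14 reads): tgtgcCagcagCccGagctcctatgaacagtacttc

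version 5 (1 read): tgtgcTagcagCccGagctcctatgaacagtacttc

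Within the first or last 9 bases, which V and J encode when not trimmed that far, 10.3% of convergent versions differed from the germline, against 5.54% of chains with a single version. Without chains that differed there, 3.57% of amino acid clonotypes were convergent. How far sequencing error contributes to the remaining versions was not tested.

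Convergence was lower in longer chains and in chains with more inserted bases. It was 7.69% of amino acid clonotypes at 10 amino acids (5.03 to 11.6%), 3.92% at 14 (3.50 to 4.38%) and 1.99% at 17 (1.01 to 3.88%). By the deposited positions it was 5.96% of chains with no inserted base (5.29 to 6.70%) and 2.47% with 7 or more (1.89 to 3.23%). By exact matches the same shares were 8.20% and 2.92%. Convergent chains averaged 2.39 ± 2.17 inserted bases (in the version with most reads, over both junctions or between V and J where no D was listed) and 13.5 ± 1.44 amino acids. Chains with a single version averaged 2.94 ± 2.45 inserted bases and 13.8 ± 1.45 amino acids. The median number of reads was 2 for chains with no inserted base and 1 for those with 7 or more, and the part of depth in this difference was not tested. By V segment, convergence was highest for TRBV13-2 (6.60%, 5.69 to 7.64%) and TRBV1 (5.53%, 4.61 to 6.61%), segments picked out after their values were seen.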

How the data were processed

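Per the labels' protocols, RNA of the sorted cells was copied by 5′ RACE, Tcrb transcripts were amplified by PCR and the products were sequenced on an Illumina MiSeq. The deposited table gives, per the file headers, the authors' read count of each clonotype, its fraction of the library's reads, its V, D and J segment and the CDR3 positions where each segment ends or starts. No molecular identifiers are named. Which segment caller, reference, error correction and genome build were used is not given in the sources used here.

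Distinct clonotypes were counted with Python 3.11.15, pandas 2.3.3, numpy 2.4.6 and scipy 1.17.1, and figures drawn with matplotlib 3.10.9. Inserted bases were those the deposited positions leave between segments. As an alternative, ends were matched exactly to the CDR3 parts of GENCODE M21 transcripts (GRCm38), with D the longest shared stretch of at least 5 bases. This step was run on simulated chains with lightly trimmed D ends, no mirrored bases and evenly drawn inserted bases. That check does not cover D stretches trimmed as far as those listed here. Pairs TRBV2 and TRBV5, TRBV13-1 and TRBV13-3, and TRBV12-1 and TRBV12-2 have identical CDR3 parts, so telling them apart needs sequence upstream of it.

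With 1 library there is no test. Named TRBV were the 5 most used, the 3 least used with at least 50 clonotypes, and the 3 highest and 3 lowest for length and insertions among those with at least 200. Named pairs were the 5 highest and 5 lowest with at least 20 expected, and named convergent chains the 8 with most versions. Every TRBJ and TRBD was named. Members and lists were chosen with earlier results of these data known. Alternatives were a minimum of 2 reads, complete CDR3 only, amino acid clonotypes, weighting by reads, removal of possible sequencing errors (1 base from a clonotype of the same TRBV, TRBJ and length with at least 5 times its reads), D stretches of at least 6 bases, exact matches to germline ends and segments with at least 200 clonotypes. Leaving out convergent versions that differ from the germline in the end bases was added after seeing the data.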

Additional observations from a re-analysis of the deposited data

How the results depend on the processing

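A value counts as moved where it left the 95% interval of the reported one. With at least 2 reads (12797 clonotypes), the 5 most used TRBV made up 49.6%, TRBJ2 69.0%, and 7.39% of clonotypes would change pair. Mean length was then 13.7 amino acids, V-D and D-J insertions were 1.14 and 1.20 bases, 19.5% had no inserted base and 2.07% of chains were convergent. Weighted by reads, TRBD1 made up 59.6% of listed D, 7.12% would change pair and mean length was 13.7. Insertions were then 1.15 and 1.20 bases, 19.5% had none and convergent chains made up 9.10% of reads, against 8.18% of nucleotide clonotypes. With D stretches of at least 6 bases, TRBD1 made up 53.8% of listed D and chains with no inserted base 18.0%. By exact matches to germline ends, insertions were 2.19 and 2.22 bases and 7.09% had none. Convergent chains made up 3.67% without the 331 possible sequencing errors and 3.57% without differences from the germline in the end bases. Complete chains only, amino acid clonotypes and segments with at least 200 clonotypes moved none of the summary values they were run on. Of 255 values for single segments and pairs under these alternatives, 237 stayed within the interval and 18 moved. Only the log2 ratios of pairs can change sign, and 0 of them did. The cause of each move was not tested. No paired analysis was possible because the group has 1 library. The log2 ratio of TRBV14 with TRBJ1-5 stayed within its wide interval but was -0.83 with at least 2 reads, against -1.65 as reported. Of clonotypes, 52.1% had 1 read, and no value here has a spread between animals. By counting error alone, a segment not listed could hold up to 0.0112% of clonotypes.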
